A study of Mus musculus with 160 samples.

Results

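Collagens are the proteins that give connective tissue its fibres, sheets and filaments, and every organ holds its own mixture of them. All protein-coding genes whose symbol follows the pattern Col, number, a, number were taken as members, which gave 44 genes among the 56980 gene identifiers measured. By the structure their proteins form, 11 of the 44 encode fibrillar collagens, 6 encode the type IV chains of basement membranes, 6 beaded filament chains, 3 network chains, 9 fibril-associated collagens with interrupted triple helices (FACIT), 4 transmembrane collagens, 2 multiplexins and 1 the anchoring fibril chain, and 2 fit none of these. For counting they were put in 4 groups, namely 11 fibrillar, 6 basement membrane, 10 other network and beaded (with the anchoring fibril chain), and 17 FACIT and remaining genes.

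The study asked how strain and diet act together on male mice. Mice of the inbred strains A/J, DBA/2J, C57BL/6J and SJL ate chow until 12 weeks of age and then an American, Mediterranean, Vegetarian or Vegan diet for 6 weeks, and tissues were taken at 18 weeks. The 4 diets were isocaloric with the same share of each macronutrient and differed in where the nutrients came from. Polyadenylated RNA was sequenced from 5 tissues (visceral, subcutaneous and brown fat, liver and quadriceps muscle), giving 32 libraries for each tissue, 8 for each strain and 2 for each combination of strain and diet within it, 160 libraries of 35 mice in all. No untreated or chow-fed group was among the samples used here.

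Every collagen is a bundle of 3 chains wound into a triple helix, in which glycine, the smallest amino acid, has to occupy 1 position in 3 because it faces the axis. Types I, III and V are laid down mostly by fibroblasts as banded fibrils, type IV forms the sheet under epithelia and around muscle fibres, fat cells and vessels, and type VI forms filaments that link that sheet to the fibrils. In fat and muscle these proteins carry mechanical load, and their build-up is known as fibrosis.

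The glycine repeat can be read in the coding exons, and exons of 54 bases are the known signature of fibrillar collagen genes, so 1 such exon is shown for each of 6 members that the results below turn on or whose tissue of highest level differed. Capitals mark the glycine codons, 6 among the 18 codons of each exon. The sequences run 5′ to 3′ along the gene in build GRCm39, for Col1a2 exon 8 (chr6:4515481-4515534, plus strand), Col3a1 exon 6 (chr1:45364520-45364573, plus strand), Col5a2 exon 6 (chr1:45474052-45474105, minus strand), Col22a1 exon 13 (chr15:71824372-71824425, minus strand), Col24a1 exon 4 (chr3:145026422-145026475, plus strand) and Col27a1 exon 4 (chr4:63150029-63150082, plus strand).
Col1a2: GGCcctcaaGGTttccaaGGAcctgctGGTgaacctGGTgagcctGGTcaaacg
Col3a1: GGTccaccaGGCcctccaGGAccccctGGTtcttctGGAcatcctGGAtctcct
Col5a2: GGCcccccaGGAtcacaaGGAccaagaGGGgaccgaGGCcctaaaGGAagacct
Col22a1: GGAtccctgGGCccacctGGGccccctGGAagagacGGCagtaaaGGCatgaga
Col24a1: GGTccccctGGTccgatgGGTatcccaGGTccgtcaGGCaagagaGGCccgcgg
Col27a1: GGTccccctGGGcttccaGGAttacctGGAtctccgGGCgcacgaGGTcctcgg
Col22a1 is a FACIT gene and the other 5 are fibrillar. Exons of exactly 54 bases made up 305 of the 647 coding exons of the 11 fibrillar genes (47.1%), and 302 of them had glycine at 1 codon in 3 throughout. The share was 25.2% in FACIT genes (109 of 432 exons), 7.94% in beaded filament genes (17 of 214) and 4.05% in basement membrane genes (12 of 296).

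Libraries held a median of 21600408 counts in brown fat, 23424894 in liver, 24939432 in muscle, 24749656 in subcutaneous fat and 24245840 in visceral fat, and between 17996919 and 54796454 over all of them. Markers of the labelled tissue were present in each (liver Alb, muscle Ckm, brown fat Ucp1, fat Adipoq), but some libraries also held RNA of another tissue. Alb, the plasma protein of hepatocytes, reached 10% or more of its mean liver level in 8 muscle libraries (4 C57BL/6J, 2 A/J, 2 DBA/2J, 0 SJL), 4 brown, 4 subcutaneous and 9 visceral fat libraries, with a highest share of 62.2%. In the library labelled visceral fat of SJL mouse 50, the visceral marker Wt1 was at 0 and the subcutaneous marker Hoxc10 at 16.2 CPM (counts scaled by library size), and in the library labelled subcutaneous fat of A/J mouse 24 Hoxc10 was at 0.32. These 27 libraries are called libraries in doubt, and the counts for fat depots, strain and diet are repeated without them. The rule rests on Alb and the depot markers only. Muscle and epididymis genes were not part of it, so libraries holding such RNA can remain in the repeats.

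Levels are first described across tissues in TPM, transcript abundance scaled by gene length and library size, in which genes can be set beside each other. Collagen transcripts were most abundant in the white fat depots. The 44 genes summed to a median of 4235 TPM in subcutaneous fat (1210 to 6148 over 32 libraries) and 3368 in visceral fat (1298 to 7452). Brown fat had 737 TPM (346 to 1456), muscle 661 (279 to 1379) and liver 436 (255 to 571), so the ranges of brown fat, muscle and liver overlapped each other and those of muscle and brown fat just reached that of the white depots. Of the genes with a median of at least 1 TPM somewhere, 17 were highest in visceral fat, 11 in subcutaneous fat, 3 in muscle, 2 in brown fat and 2 in liver.

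The mixture differed between tissues. In subcutaneous fat fibrillar collagens supplied a median of 50.3% of the summed TPM, basement membrane collagens 23.4% and beaded filaments 15.9%, and muscle was close to this with 48%, 19.7% and 18%. Visceral fat held 34.9% fibrillar, 27.9% basement membrane and 21% beaded collagens, and in brown fat the basement membrane genes led with 44.4% against 34.3% fibrillar. Liver stood apart, because multiplexins supplied 75.1% and fibrillar genes 11.9%. That share came from Col18a1, whose product releases the fragment endostatin and which hepatocytes are known to make, with a median of 317 TPM in liver against 12.1 in brown fat.

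Among fibrillar genes, Col3a1, the chain of the thin reticular fibres, had the highest median in subcutaneous fat with 813 TPM, followed there by Col1a1 with 436 and Col1a2 with 292, the chains of the type I fibrils of skin, tendon and bone. In liver the same 3 genes had 6.38, 1.59 and 2.19 TPM. Col5a3, a chain of the type V collagen that sets fibril width, reached 273 TPM in visceral and 244 in subcutaneous fat, and 26.9 to 27.4 in the other tissues. Col27a1, known from cartilage, was highest in brown fat (18.3 TPM), with 11.5 in liver and 1.66 in muscle, and Col11a2 was the other fibrillar gene highest there (4.19 TPM, beside 3.49 in muscle). Col24a1 was highest in muscle at 2.43 TPM, 6.53 times its next tissue.

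The basement membrane pair Col4a1 and Col4a2, which form the network found in nearly every basement membrane, had medians of 530 and 453 TPM in visceral fat, 488 and 337 in subcutaneous fat and 162 and 131 in brown fat. Col4a6, a chain of epithelial and smooth muscle basement membranes, reached 3.33 TPM in visceral fat, 10.1 times its level in any other tissue. Col6a5, one of the alternative chains of type VI, was likewise a visceral fat gene with 36.4 TPM, 13.1 times subcutaneous fat. Col22a1, which lies at the junction of muscle and tendon, stood out in muscle with 5.6 TPM (3.85 to 9.1 over the 32 libraries), 34.5 times the next tissue. In these bulk tissues fewer cells of a type and less RNA per cell cannot be told apart.

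**Figure D1:**
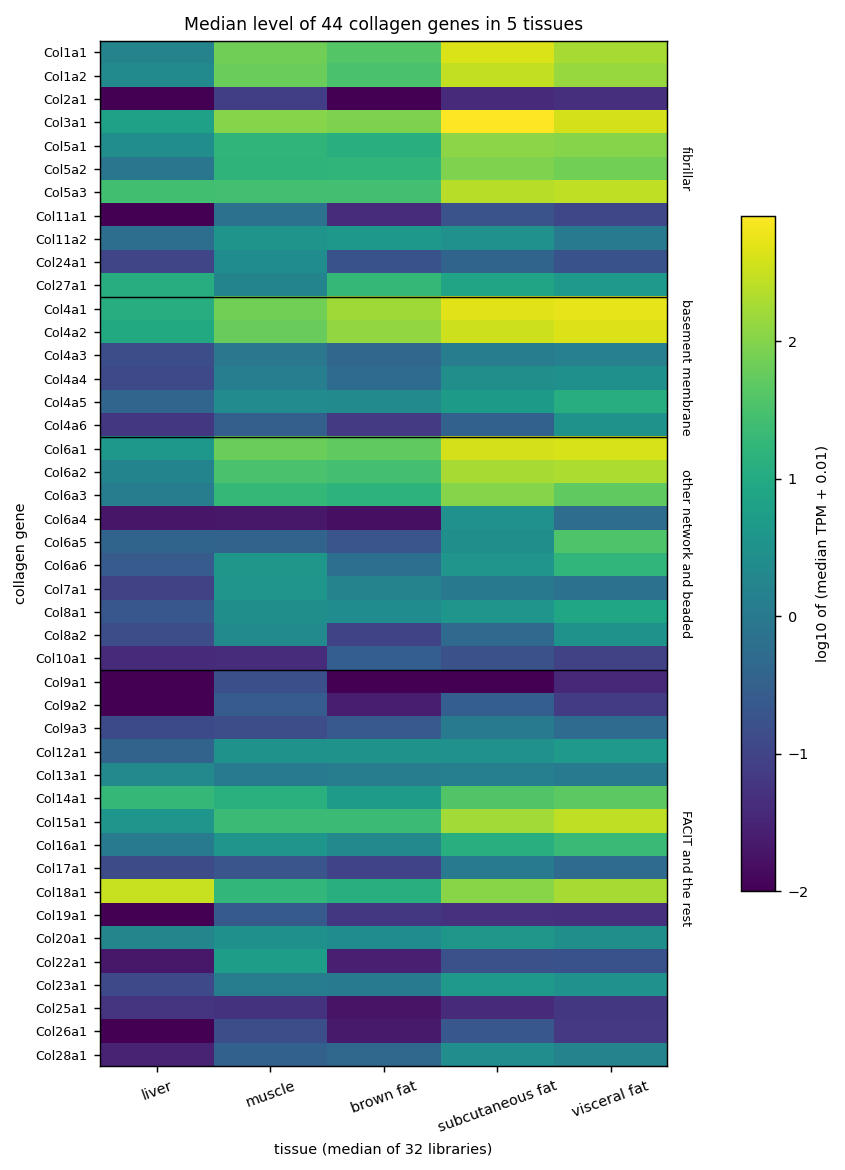
Colour gives the log10 of the median TPM plus 0.01 over 32 libraries for 44 collagen genes (rows, divided by lines into 4 groups) in 5 tissues (columns). The white fat columns are brightest for fibrillar, basement membrane and type VI genes, Col18a1 stands out in liver at 317 TPM, and Col22a1 in muscle at 5.6 TPM.

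Chains that share a triple helix were set beside each other as ratios. Type I collagen is built from 2 chains of Col1a1 and 1 of Col1a2, and the ratio of their TPM had medians of 1.14 in muscle, 1.36 in brown and subcutaneous fat, 1.25 in visceral fat and 0.727 in liver. The liver ratio ran from 0.427 to 1.39, and in C57BL/6J livers its median was 1.09. Col4a1 over Col4a2, transcribed from a shared start region in opposite directions, had medians between 1.16 in liver and 1.33 in subcutaneous fat. For type VI, Col6a1 over Col6a2 had medians between 1.9 and 2.57, while Col6a3 over Col6a1 was 0.124 in visceral fat and 0.262 to 0.292 elsewhere. The pairs that replace Col4a1 and Col4a2 in specialised membranes varied more, with Col4a3 over Col4a4 between 0.424 and 1.19 and Col4a5 over Col4a6 between 3.34 in visceral and 40 in brown fat. Type IX genes of cartilage were at the edge of detection. Of these, Col9a1 over Col9a3 could be formed in muscle in 30 of 32 libraries, with a median of 1.41 and a range of 0.095 to 9.12.

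Fat depots were compared directly with the counts, in a model with depot, strain and diet, and a gene was called at an adjusted p under 0.05 over all genes tested. Values in these comparisons are CPM, which can be set side by side for 1 gene but not between genes. Visceral and subcutaneous fat differed in 35 of the 42 collagens tested, 19 higher in visceral fat and 16 lower, where 34.2% of all genes were higher and 32.8% lower. The members' median log2 difference was 0.24 and that of all genes 0.021. Basement membrane genes were higher in 5 of 6 and lower in 0, fibrillar genes higher in 2 and lower in 7 of 11, other network and beaded genes higher in 6 and lower in 3, and the FACIT group higher in 6 and lower in 6.

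The largest rises were in genes of specialised networks. Col6a5 ran from 12.9 to 252 CPM in visceral fat with a median of 119, and from 1.76 to 23.3 with a median of 8.83 in subcutaneous fat. Its log2 difference was 3.99 (SE 0.19, adjusted p = 1.02e-25, edgeR). The lowest visceral libraries overlapped the highest subcutaneous ones. Col8a2, which forms the hexagonal lattice of Descemet's membrane in the eye, was higher by 3.29 (SE 0.18), with medians of 5.92 and 0.7 CPM. Col4a6 was higher by 3.2 (SE 0.18), with medians of 10.8 and 0.902 CPM. Type VI member Col6a4 went the other way with a log2 difference of -2.07 (SE 0.28), with medians of 1.95 and 9.36 CPM and overlapping ranges. Col11a2 was lower by 1.69 on the log2 scale (medians 2.69 and 6.82 CPM). For Col1a1 the difference was -0.86 (SE 0.12), with 156 to 1057 CPM in visceral and 280 to 1475 in subcutaneous fat.

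Genes that work beside the collagens moved with them in part. Laminins and other basement membrane partners were higher in visceral fat in 12 and lower in 2 of 16, among them Nid2 (0.79) and Hspg2 (0.66), which tie laminin to type IV collagen. The 15 collagen-modifying hydroxylase and glycosylase genes were higher in 7 and lower in 1. Markers of other cells also differed. All 7 mesothelial genes, of the cell layer that covers visceral fat, were higher (median log2 difference 6.4), 7 of 7 B cell and 7 of 7 Schwann cell genes were lower, and 8 of 8 hepatocyte genes were higher with a median of 2.73. Their part in the collagen differences was not tested. Without the libraries in doubt 36 collagens were called, 21 higher and 15 lower, and Col11a2 then differed by -2.01 (SE 0.2).

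Brown fat was below both white depots for most collagens. Against subcutaneous fat 8 were higher and 30 lower of 40 tested, beside 39.1% and 42.2% of all genes, with medians of -1.42 for the members and -0.031 for all genes. Against visceral fat 7 were higher and 33 lower of 41, beside 36.4% and 44.8% of all genes, with medians of -1.25 and -0.092. Both comparisons use the same brown fat libraries. The direction of some rises depended on the scaling. By median TPM Col20a1 (2.47 against 3.96), Col8a1 (2.46 against 3.86) and Col13a1 (1.17 against 1.28) were lower than in subcutaneous fat. Against visceral fat the same held for Col20a1 (2.77 there) and Col12a1 (3.21 against 4.33). The other genes called higher in brown fat were also higher by median TPM. Fibrillar genes were higher in 2 and lower in 8 in each, and 0 basement membrane genes were higher in either.

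Col27a1 was the leading exception. It ran from 68.3 to 301 CPM in brown fat and from 12.1 to 57.7 in subcutaneous fat, with no overlap and a log2 difference of 2.4 (SE 0.15, adjusted p = 1e-21, edgeR). Against visceral fat the difference was 2.82 (SE 0.19), again with no overlap. Col7a1, the anchoring fibril chain of skin, was higher by 1.67 (SE 0.15) and 1.9 (SE 0.17), and Col10a1, the chain of growing cartilage, by 1.79 and 2.46. Levels of Col10a1 were low throughout, with medians of 0.284 TPM in brown, 0.156 in subcutaneous and 0.0777 in visceral fat. Col12a1, a FACIT gene of tendon and fascia, was higher than in subcutaneous fat by 1.22 (SE 0.09), but by 0.12 and uncalled with limma on TPM. In the other direction Col6a5 in brown fat was 6.51 lower than in visceral fat on the log2 scale, and its ranges of 0.0559 to 6.32 and 10.2 to 196 CPM did not overlap. Col1a1 was lower than in subcutaneous fat by 2.13 (SE 0.15), with medians of 153 and 761 CPM. Fibroblast and progenitor markers were lower in brown fat in 12 of 13 genes against subcutaneous fat (median -1.74) and 13 of 13 against visceral fat (-1.94), with Dpt, Gsn and Clec3b at -2.59, -2.14 and -2.25 in the first. Small proteoglycans that coat fibrils followed in 9 and 10 of 10, among them Dcn (-1.74) and Bgn (-1.25) against subcutaneous fat. Whether the fibroblast markers account for the collagens was not tested. Without the libraries in doubt 7 collagens were higher and 29 lower than in subcutaneous fat, with Col8a1 (adjusted p = 0.0631) and Col24a1 (adjusted p = 0.0742, edgeR) no longer called, and 7 higher and 33 lower than in visceral fat.

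**Figure D2:**
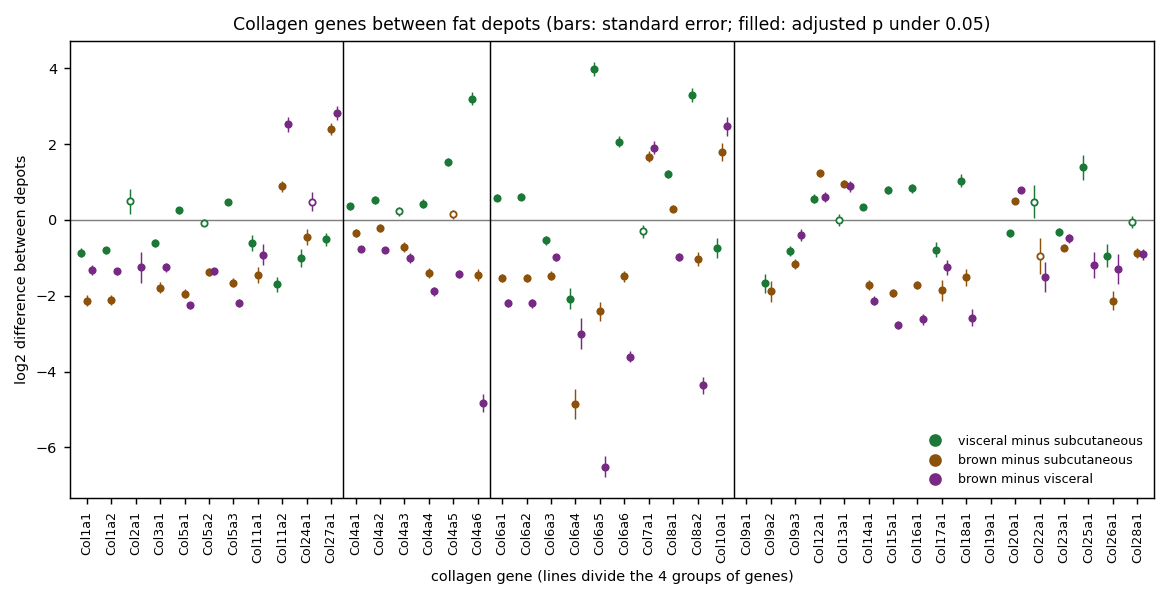
Points are log2 differences of each collagen gene between fat depots with standard errors, 3 comparisons per gene, filled where the adjusted p was under 0.05, and lines divide the 4 groups of genes. Brown fat lies below 0 for most genes, with Col27a1, Col7a1 and Col10a1 above it in both comparisons, and Col6a5, Col8a2 and Col4a6 are highest in visceral fat.

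Strain was compared within each tissue. Libraries of A/J, DBA/2J and SJL were aligned with a relaxed penalty for mismatches to the C57BL/6J-based genome, so a difference of C57BL/6J from the others and a difference of alignment cannot be told apart, and sequence variants between strains were not examined. Collagens were called over strains in 37 of 40 tested in subcutaneous fat (65.6% of all genes), 33 of 42 in muscle (45.5%), 27 of 36 in brown fat (56.8%), 26 of 40 in visceral fat (40.1%) and 21 of 33 in liver (53%). The counts without libraries in doubt were 38 in subcutaneous fat, 32 in muscle, 27 in brown fat and 28 in visceral fat. In subcutaneous fat this took in all 10 fibrillar and 6 basement membrane genes tested, and 9 of 10 other network and beaded genes. The members' shares stood above the background in each tissue, by the least in liver. Each strain was then set against the mean of the other 3.

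In muscle SJL had more collagen transcript than the other strains across all groups of members. It was higher in 26 of 42 and lower in 2, where 20.9% of all genes were higher and 16.3% lower, with a median log2 difference of 0.57 against 0.014 over all genes. Basement membrane genes were higher in 6 of 6 (median 0.59), fibrillar in 6 of 11, beaded filament genes in 5 of 5 tested (0.65) and the FACIT group in 8 of 17. Of the basement membrane genes, Col4a6 was low in A/J, which is part of the comparison group. Summed TPM of all collagens ran from 708 to 1379 in SJL with a median of 1168, and the medians of the other strains were 588 to 677.

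Col3a1 ran from 747 to 1106 CPM in SJL muscle (median 873) and from 238 to 721 in the 24 other libraries (median 389). Every SJL library was above every other, with a log2 difference of 1.11 (SE 0.14, adjusted p = 1.36e-07, edgeR). Col8a1, a short network chain made by vessel wall cells, ran from 12.4 to 23.4 CPM against 5.49 to 10.6, also without overlap, and differed by 1.15 (SE 0.09). Col16a1, a FACIT gene, did the same with 17 to 23.9 against 7.39 to 14.9 CPM (1.06, SE 0.11). Col5a2 overlapped the others (74.1 to 136 against 37.3 to 83.2 CPM) and differed by 0.92. The type I genes had smaller differences. Col1a1 was at 264 to 379 CPM in SJL (median 340) and had medians of 219, 178 and 175 in C57BL/6J, A/J and DBA/2J, a difference of 0.62, and single C57BL/6J and A/J libraries reached 513 and 428. The 2 genes below the other strains were Col9a1 (-2.16), a cartilage chain, and Col18a1 (-1.6, SE 0.48). Leaving out the libraries in doubt, which hold liver RNA and include 0 of SJL, brought Col18a1 to -0.67 (SE 0.23, adjusted p = 0.0277, edgeR). The counts were then again 26 higher and 2 lower, with Col11a1 (0.43) and Col4a2 (0.27) no longer called and Col27a1 (0.56) and Col5a3 (0.32) called higher.

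Enzymes and partners of the collagens were higher as well. Of 15 hydroxylase and glycosylase genes 10 were higher and 1 lower in SJL muscle, led by P4ha3 (1.24) and Plod2 (0.95), which hydroxylate proline and lysine. Of 7 procollagen processing genes tested 5 were higher, among them Adamts14 (1.08) and the enhancer Pcolce (0.52). The collagen proteases and their inhibitors were higher in 5 and lower in 1 of 13, with the inhibitor Timp1 at 3.1 and Mmp3 at 1.55. Basement membrane partners were higher in 7 and lower in 3 of 16.

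Cell markers moved beside these. All 8 macrophage genes were higher in SJL muscle (median 1.33), led by Gpnmb (2.99) and Cd68 (1.88), and their summed level of 535 to 856 CPM compared with 223 to 589 in the other strains. Of 7 genes of muscle regeneration 4 were higher, Mymk by 3.87 and Myog by 1.64, though the sum of the list, 256 to 425 CPM, lay within 141 to 495 of the others. Fibroblast markers were higher in 6 and lower in 2 of 13, with sums of 2737 to 3059 against 1588 to 4080 CPM. Hepatocyte genes were lower in 8 of 8, with 313 to 2180 CPM in SJL and 14.3 to 48167 in the others. Their part in the collagen result was not tested, apart from the repeat without libraries in doubt.

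SJL and A/J are both known carriers of mutations in Dysf, the membrane repair protein dysferlin whose loss causes a slow muscular dystrophy. The Dysf transcript was low in A/J muscle, 11 to 18.2 CPM, and not in SJL, 114 to 128, beside 44.8 to 117 in C57BL/6J and 48.3 to 84 in DBA/2J. The mean of A/J and SJL was set against the mean of the other pair. Collagens were higher in 16 and lower in 2 of 42, beside 16.6% and 13.6% of all genes, with a median of 0.23 against 0.0007 over all genes. Other network and beaded genes were higher in 6 of 8, and basement membrane genes in 0 with 1 lower, Col4a6 (-1.57), which was low in A/J and not in SJL. Col3a1 differed by 0.71, Col8a1 by 0.79 and Col6a5 by 1.26, and macrophage genes were higher in 8 of 8 (median 0.75). This contrast shares its SJL libraries with the one above. Set by itself against the other 3 strains, A/J muscle had a median of -0.13 over the collagens and -0.19 over the fibrillar genes. A higher level was thus not shown for A/J. SJL is part of that comparison group, and A/J against C57BL/6J and DBA/2J alone was not tested. Leaving out the libraries in doubt, 13 collagens were higher and 3 lower between the pairs, and Col1a2, Col15a1, Col6a1, Col6a2 and Col6a3 were then uncalled.

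In subcutaneous fat the same strain stood at the other end. SJL was lower in 26 and higher in 9 of 40 collagens, beside 21.9% of all genes lower and 21.9% higher, with a median of -0.93 against 0.017 over all genes. Fibrillar genes were lower in 7 and higher in 2 of 10 (median -1.11), basement membrane genes lower in 5 and higher in 1 of 6 (-0.91), other network and beaded genes lower in 7 and higher in 2 of 10 (-1.21), and the FACIT group lower in 7 and higher in 4 of 14 (-0.44). Summed collagen TPM was 1210 to 2344 in SJL and at least 2590 in every other library.

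Col5a3 ran from 94.9 to 181 CPM in SJL (median 143) and from 340 to 1453 in the others (median 695). The groups did not overlap, and the log2 difference of -2.43 (SE 0.16, adjusted p = 1.17e-12, edgeR) was among the largest of the members. Col3a1 was at 926 to 1637 CPM in SJL, and its medians were 2893 in C57BL/6J, 3043 in A/J and 3432 in DBA/2J, a difference of -1.28. Of the type VI genes Col6a1 was lower, with 186 to 296 against 349 to 876 CPM (-1.43, SE 0.13, adjusted p = 8.34e-10, edgeR), as was Col6a3 with 112 to 228 against 258 to 739 (-1.62). Neither overlapped. Col6a2, Col6a4 and Col6a6 were lower as well, and Col6a5 was higher (0.82). Col4a1 and Col4a2 were lower by 1.23 and 1.22 on the log2 scale, with slight overlap. Col11a2, a fibrillar chain of cartilage, was higher instead, 22.8 to 44.8 against 2.66 to 18.8 CPM (2.17, SE 0.15), as were Col10a1 (1.27), Col28a1 (1.22) and Col20a1 (1.21).

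Most of the surrounding pathway was lower too. Hydroxylase and glycosylase genes were lower in 11 and higher in 0 of 15, with Plod1 at -0.76. Folding and export genes were lower in 7 of 9, including Fkbp10 (-0.66), a collagen chaperone, and Creb3l1 (-1.06), a regulator of collagen export. Proteases and inhibitors were lower in 10 and higher in 2 of 13, with Mmp3 at -2.38, where SJL muscle had it at 1.55. Proteoglycans were lower in 9 of 10 (Fmod -1.52). Fibroblast markers were lower in 9 of 13 (median -0.65), with sums of 5845 to 8959 CPM in SJL and 4975 to 17029 in the others, and mural cell markers were lower in 8 of 8, with 504 to 681 against 518 to 1441. The part of these cells in the result was not tested. Without the libraries in doubt 25 collagens were lower and 11 higher.

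The difference between the SJL contrasts of the 2 tissues was itself tested, in a model added after the data had been seen. Most mice gave both tissues, but the model took the libraries as independent, and pairing by mouse was not checked for these tissues. It was called in 34 of the 44 collagens, 30 more positive in muscle and 4 more negative, beside 16.6% and 15.9% of all genes. Col5a3 differed by 2.52 (SE 0.2), Col3a1 by 2.31 (SE 0.21), Col6a3 by 2.19, Col8a1 by 2.18 and Col1a1 by 1.91 (SE 0.26) on the log2 scale. The 4 in the other direction were Col11a2 (-2.14), Col25a1 (-1.75), Col27a1 (-1.26) and Col20a1 (-1.07). Of 38 members tested in both tissues, 18 were higher in SJL muscle and lower in SJL subcutaneous fat. Col17a1, Col9a3, Col4a6, Col28a1 and Col6a5 were higher in both. For Col4a6 the comparison group includes A/J, which was low for this gene in both tissues. For Col18a1 the difference was -0.39 and uncalled (adjusted p = 0.59, edgeR), and 0.94 (adjusted p = 0.00599) without the libraries in doubt, while the count was 34 both ways.

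**Figure D3:**
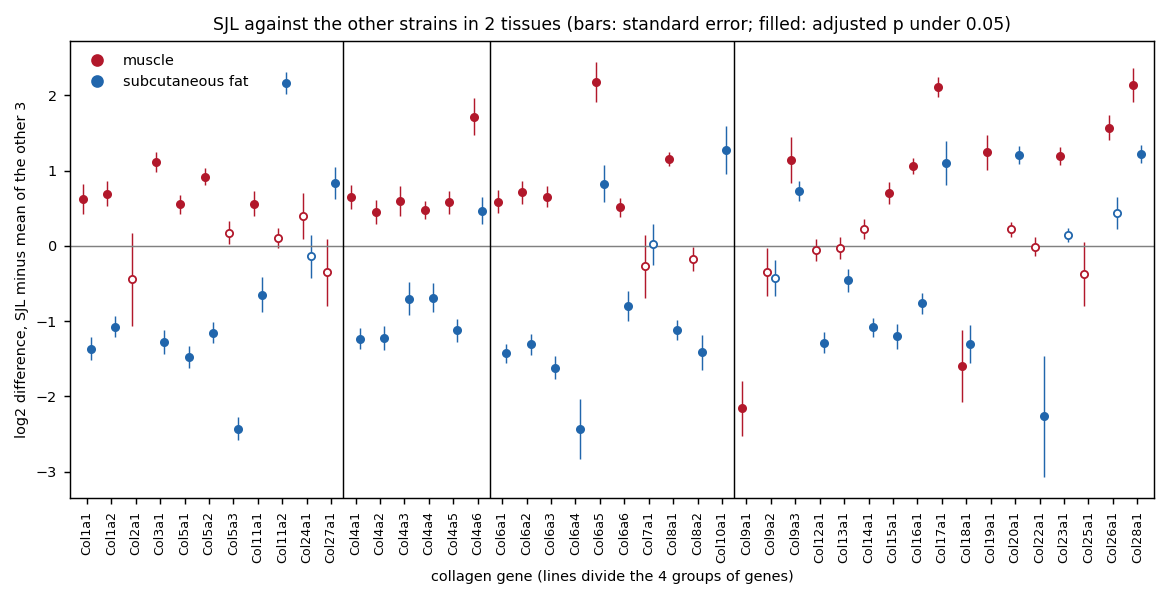
Points are log2 differences of SJL from the mean of the other 3 strains with standard errors, in muscle (red) and subcutaneous fat (blue), for the collagen genes tested, filled where the adjusted p was under 0.05. Red points lie mostly above 0 and blue mostly below, and Col5a3 reaches -2.43 in subcutaneous fat.

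Promoters of 2 members of that comparison are shown, Col1a2 and Col3a1, whose products meet in the same fibrils and which were both higher in SJL muscle and lower in SJL subcutaneous fat. Each is the 250 bases before the annotated start in RefSeq's GRCm38.p6 table, at chr6:4505368-4505617 and chr1:45311288-45311537, both on the plus strand, 5′ to 3′. Capitals mark 3 motifs looked for on both strands, of which none overlaps another in these windows. They are CCAAT, the core of the box of that name, then TATAAA, that of the box that places the start of transcription, and GGGCGG, the box known to be bound by Sp1.
Col1a2: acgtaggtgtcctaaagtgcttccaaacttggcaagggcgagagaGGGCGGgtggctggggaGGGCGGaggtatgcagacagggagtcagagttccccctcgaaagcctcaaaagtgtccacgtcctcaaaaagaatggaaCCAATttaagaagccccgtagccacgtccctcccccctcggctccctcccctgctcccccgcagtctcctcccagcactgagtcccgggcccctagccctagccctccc
Col3a1: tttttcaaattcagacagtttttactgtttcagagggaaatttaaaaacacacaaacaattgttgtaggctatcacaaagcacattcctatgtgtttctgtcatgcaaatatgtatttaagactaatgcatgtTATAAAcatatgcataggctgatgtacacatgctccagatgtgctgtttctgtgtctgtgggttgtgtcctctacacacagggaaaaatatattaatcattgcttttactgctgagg
The Col1a2 window held 1 CCAAT, 0 TATAAA and 2 GGGCGG, and the Col3a1 window 0, 1 and 0. Over 38 windows of 35 collagen genes, GGGCGG occurred in 22 (57.9%) and in 32.7% of all 32851 windows of that length, CCAAT in 13 (34.2%) against 33.8%, and TATAAA in 5 (13.2%) against 12.4%. A match is a description of letters and not of a bound factor. Col12a1, Col14a1, Col1a1, Col22a1, Col26a1, Col2a1, Col4a3, Col5a2 and Col9a3 had no entry.

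In both white depots DBA/2J had the highest median of summed collagen TPM, 5639 in subcutaneous and 6559 in visceral fat. In visceral fat it was higher in 21 and lower in 3 of 40 members, beside 15.9% and 13.3% of all genes, with a median of 0.65 against -0.052. Fibrillar genes were higher in 6 of 11 (median 0.83), basement membrane genes in 4 of 6 (0.56) and other network and beaded genes in 7 of 9 (0.96), and 0 of these groups' members were lower. Summed collagen TPM was 4831 to 7452 in DBA/2J, and the highest library of any other strain reached 5523.

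Col6a1 ran from 1161 to 1482 CPM in DBA/2J visceral fat (median 1326) and from 253 to 1066 in the others (median 506). Its log2 difference was 1.28 (SE 0.16, adjusted p = 4.88e-07, edgeR). Col6a2 had 1005 to 1412 against 244 to 940 CPM (1.22). Both were clear of every other library, and so was Col5a2, with 423 to 529 against 97.2 to 332 CPM (1.16, SE 0.14). Col3a1 overlapped slightly at 2153 to 2862 against 601 to 2184 CPM (1.05). Larger differences were found in lower genes, Col6a4 (2.27), Col12a1 (1.75) and Col8a1 (1.39). The 3 lower genes were Col28a1 (-2.16), Col17a1 (-0.88) and Col20a1 (-0.63).

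Modifying enzymes were higher in 6 and lower in 1 of 15, among them Plod1 (0.48) and Plod3 (0.44), folding genes in 4 of 9, and fibroblast markers in 4 with 1 lower of 13. Fibroblast sums were 6377 to 9575 CPM in DBA/2J and 5594 to 16487 in the others, so they were not highest in this strain. Epididymis genes, of the organ that lies against this depot, were higher in 4 of 6 tested, but their sum was between 0 and 649 CPM with a median of 0.296 in DBA/2J, so the high sums belonged to few libraries. Without the libraries in doubt 23 collagens were higher and 4 lower. The part of these cells was not tested.

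DBA/2J was also highest in subcutaneous fat, where 19 members were higher and 6 lower of 40, beside 25.1% and 20.5% of all genes (median 0.47 against 0.0026). The 19 included 4 of 6 basement membrane and 6 of 10 other network and beaded genes, with 0 lower in either. Col8a1 ran from 18.8 to 40.9 CPM against 5.26 to 17.2 in the other strains, a difference of 1.79 (SE 0.11, adjusted p = 1.15e-12, edgeR). Col12a1 had 25.1 to 56.4 against 7.21 to 24.9 CPM (1.58, SE 0.12). The groups did not overlap for either. Mural cell markers were higher in 8 of 8 (921 to 1441 CPM in DBA/2J, 504 to 1165 elsewhere), keratinocyte markers in 7 of 9 with sums of 12.8 to 270 CPM, mesothelial markers in 5 of 7, and Schwann cell markers were lower in 7 of 7. Their part was not tested, and 18 collagens were higher and 8 lower without the libraries in doubt.

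In SJL visceral fat 18 members were lower and 4 higher of 40, beside 8.88% and 8.7% of all genes (median -0.44 against 0.041). Fibrillar genes were lower in 6 of 11 and higher in 0, and other network and beaded genes lower in 6 and higher in 0. Col5a3 had 167 to 272 CPM in SJL and 327 to 1723 in the others, with no overlap (-1.98, SE 0.14). Col12a1 was at -1.56, Col16a1 at -1.29 and Col6a1 at -1.19. Without the libraries in doubt 14 were lower and 6 higher. Col1a2, Col4a2, Col5a2 and Col8a2 were then no longer called, and Col6a5 (0.71) and Col6a6 (0.53) were called higher. B cell markers were higher in 5 of 7, with sums of 10.3 to 743 CPM, the highest in the library labelled SJL mouse 50.

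**Figure D4:**
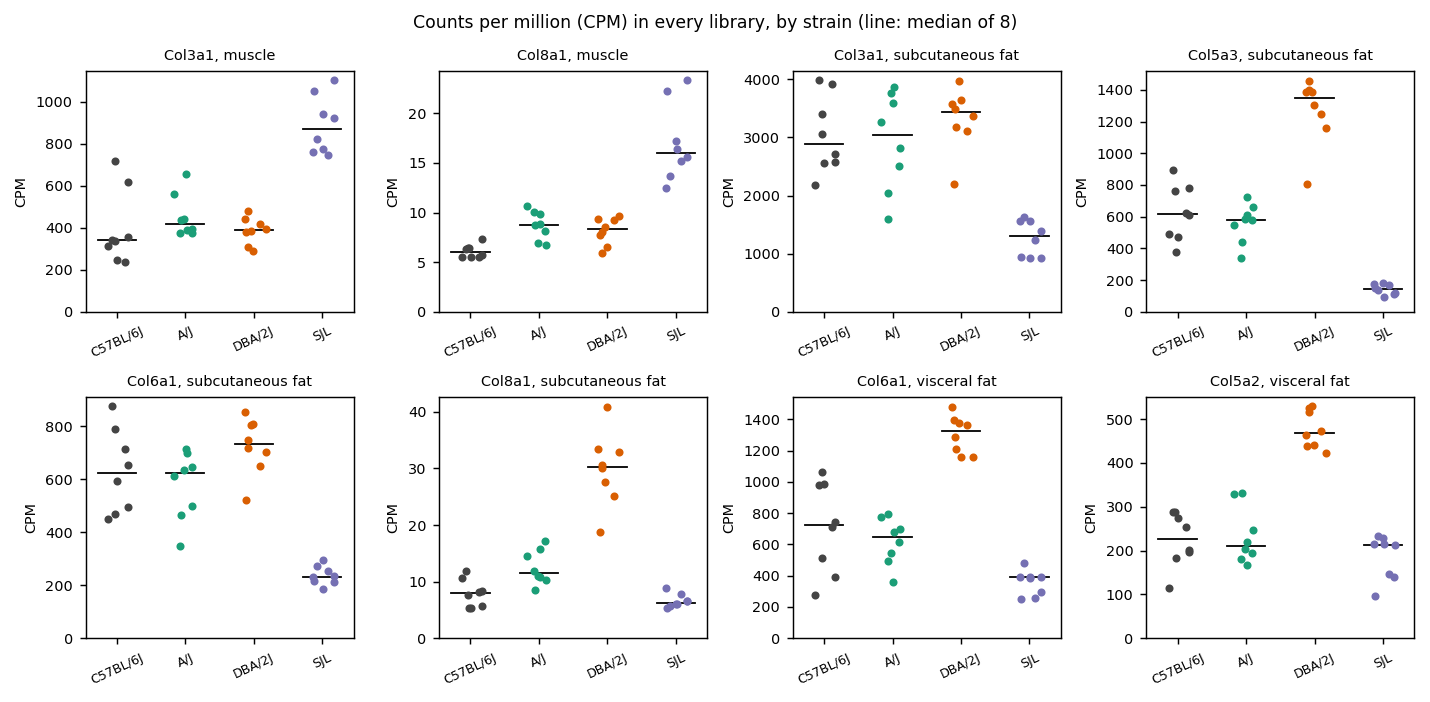
Each point is 1 library and each line the median of 8, in CPM by strain, for 8 pairs of gene and tissue. SJL is highest for Col3a1 and Col8a1 in muscle and lowest for Col3a1, Col5a3 and Col6a1 in subcutaneous fat, and DBA/2J is highest for Col6a1 in visceral fat.

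In brown fat DBA/2J was higher in 17 and lower in 6 of 36 members, beside 19.9% and 14.8% of all genes (median 0.49 against 0.016), and A/J was lower in 16 and higher in 4, beside 18.5% and 17.3% (median -0.31 against 0.0007). Fibrillar genes were higher in 6 of 9 in DBA/2J and lower in 6 of 9 in A/J. Each strain is part of the other's comparison group. Col5a3 ran from 78.2 to 221 CPM in DBA/2J brown fat (median 193) and 44.5 to 156 elsewhere (1.21, SE 0.13, adjusted p = 8.34e-09, edgeR). Col14a1, a FACIT gene of fibroblasts, had 30.3 to 54.3 against 6.22 to 37.8 CPM (1.39). Col4a1, with 566 to 1009 against 384 to 710 CPM, differed by 0.56. All 3 overlapped the other strains.

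A/J brown fat was lowest for Col3a1 (-0.97), Col16a1 (-0.92) and Col1a1 (-0.89), while Col11a2 was higher (1.37). Summed collagen TPM had a median of 558 in A/J and 1093 in DBA/2J. Macrophage markers moved the same way as the collagens, higher in 6 of 8 in DBA/2J (244 to 551 CPM) and lower in 7 of 8 in A/J (129 to 224), beside 141 to 361 CPM in the other 2 strains. Fibroblast markers were higher in 7 and lower in 1 of 13 in DBA/2J, led by Fbln1 (1.52) and Mfap5 (1.46), and lower in 8 in A/J. Their sums were 1195 to 2113 and 948 to 1428 CPM, and C57BL/6J had 1592 to 2413. Their part was not tested. Repeated without libraries in doubt, 17 members were higher and 6 lower in DBA/2J, and 3 were higher and 15 lower in A/J, where Col20a1, Col22a1 and Col4a2 were then uncalled.

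In liver C57BL/6J was higher in 8 and lower in 5 of 33 members, beside 14% and 12.7% of all genes, with a median of 0.14 against -0.0057. Col1a1 had 4.15 to 15.8 CPM in C57BL/6J (median 8.26) and 2.26 to 8.82 in the others (median 4.03), a difference of 1.04 (SE 0.16, adjusted p = 7.18e-06, edgeR). Col6a3 (0.78) and Col3a1 (0.46) were higher too. Collagen folding genes were higher in 4 of 9, among them Serpinh1 (0.65), the chaperone specific to collagen, and proteoglycans in 5 of 9. Hepatic stellate markers, of the cells that make fibrils in liver, summed to 242 to 307 CPM in C57BL/6J and 263 to 420 in the others.

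The most abundant liver member, Col18a1, was slightly lower in C57BL/6J, 698 to 857 against 709 to 1353 CPM (-0.40, SE 0.07, adjusted p = 8.11e-05, edgeR). SJL livers had more Col4a2 (37.5 to 61.5 against 14.2 to 38 CPM, a difference of 0.99, SE 0.11) and more Col4a1 (0.6). They had less Col5a3, 2.76 to 23.4 against 9.17 to 165 CPM (-2.34, SE 0.35). Col6a5 was lowest in C57BL/6J, 0.0847 to 0.839 against 0.903 to 3.24 CPM (-2.06), without overlap.

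Some genes had the same strain high or low in most of the tissues tested. Col4a6, Col17a1, Col28a1, Col23a1, Col11a2 and Col20a1 were chosen for this after their values had been seen, so the following is a description. Col4a6 was lower in A/J in 4 of 4 tissues tested, with log2 differences of -4.05 to -2.5. C57BL/6J and DBA/2J were each higher in 3 of 4 and SJL in 4 of 4, and A/J is in the comparison group of each. In muscle A/J had 0 to 0.242 CPM and the others 0.335 to 2.5, and in visceral fat, where the gene is highest, 0.382 to 1.69 against 1.35 to 20.9. Brown fat was below the count needed for a test, with A/J again lowest by median (0.0575 CPM, others 0.212 to 0.258). Its usual partner Col4a5 lies beside it on the X chromosome, and the Col4a5 to Col4a6 ratio reached 146 in muscle and 178 in subcutaneous fat.

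Col17a1, a transmembrane collagen of the hemidesmosomes that anchor skin, was higher in SJL in 5 of 5 tissues. The log2 differences ran from 1.1 in subcutaneous fat to 4.03 in brown fat (SE 0.2, adjusted p = 1.84e-15, edgeR), where SJL had 2.68 to 3.46 CPM and the others 0.0432 to 0.466. Liver had 1.32 to 3.09 against 0 to 0.719, muscle 1.22 to 2.51 against 0.0988 to 0.675 and visceral fat 3.58 to 6.44 against 0.35 to 2.49 CPM. There was no overlap in these 4 tissues. In subcutaneous fat 1 DBA/2J library, of mouse 39, was highest of all with 16.3 CPM.

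Col28a1, a collagen known around Schwann cells of peripheral nerve, was lower in DBA/2J in 4 of 4 tissues tested (-2.16 to -1.34) and higher in SJL in the same 4 (1.22 to 2.54). It was also lower in A/J in 3 of 4 (down to -1.92) and higher in C57BL/6J in 3 of 4 (up to 1.54). Each strain is part of the others' comparison groups. The summed level of Schwann cell markers did not follow the order of DBA/2J and SJL in muscle, with means of 74.3 and 60.9 CPM. The same held in brown fat, with 121 and 91. In subcutaneous fat the means were 176 and 220 CPM, and in visceral fat 63 and 76.2, where the highest SJL library had 220. The part of Schwann cells in the Col28a1 differences was not tested. Col23a1, a transmembrane collagen, was lower in DBA/2J in 3 of 5 tissues, by 1.3 on the log2 scale in muscle, and was uncalled in liver (-0.52, adjusted p = 0.158) and visceral fat (-0.51, adjusted p = 0.0642, edgeR). It was also higher in C57BL/6J in 4 of 5 tissues, by up to 1.18 in brown fat, and in A/J in 3 of 5. Col11a2 was lower in C57BL/6J in 4 of 5, with 2.67 to 5.96 against 9.77 to 45.6 CPM in brown fat (-1.87), and Col20a1 in 5 of 5 (-2 to -0.44). Col20a1 was also lower in DBA/2J in 3 of 5 and higher in SJL and A/J in 4 of 5 each. For these C57BL/6J differences the alignment settings and the strain cannot be told apart. Col5a3 was lower in SJL in 4 of 5 tissues and at 0.17 in muscle (adjusted p = 0.404, edgeR), and higher in DBA/2J in 4 of 5.

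**Figure D5:**
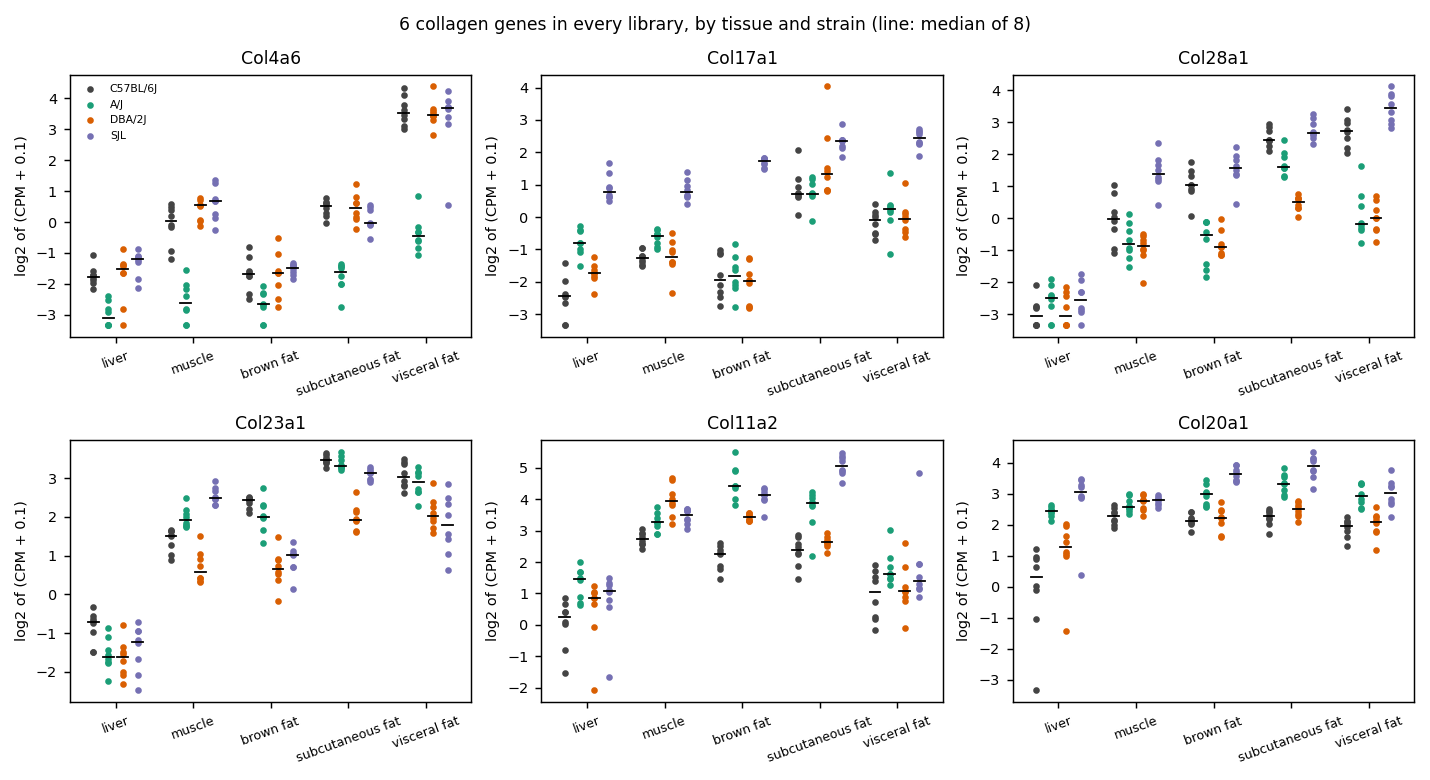
Each point is 1 library, by tissue and strain, on a scale of log2 of CPM plus 0.1, with lines at the median of 8, for 6 collagen genes. A/J is lowest for Col4a6, SJL highest for Col17a1 in 4 of 5 tissues without overlap, and DBA/2J low for Col28a1. For Col28a1 A/J was also lower in 3 of 4 tissues tested.

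For diet, 0 collagens were called over the 4 diets in any tissue by edgeR. All genes gave 0.102% called in liver (19 genes), 0% in muscle, 0.416% in brown fat (84 genes), 0% in subcutaneous and 0% in visceral fat. At an unadjusted p under 0.05 there were 2 collagens in liver, 2 in muscle, 3 in brown fat, 1 in subcutaneous and 1 in visceral fat (edgeR). The share of all genes at that threshold is not given, so no result is read from these counts. DESeq2 and limma called 0. Levels overlapped widely between diets. Col3a1 in subcutaneous fat had a median of 3418 CPM in American-fed mice (926 to 3995), 2791 in Mediterranean-fed (933 to 3917), 2702 in Vegetarian-fed (937 to 3397) and 2453 in Vegan-fed mice (1558 to 3771). In muscle its medians were 418, 527, 461 and 384 CPM in the same order, with ranges that together spanned 238 to 1106. Col1a1 in liver had medians of 5.18, 4.7, 4.26 and 5.02 CPM, within 2.26 to 15.8. The 8 libraries of each diet span the 4 strains, which sets much of these ranges.

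Col6a4, a type VI chain near the limit of detection in brown fat, came nearest (adjusted p = 0.153, edgeR). American-fed mice had 0 to 2.06 CPM, Mediterranean-fed 0 to 0.0919, Vegetarian-fed 0 to 1.03 and Vegan-fed 0 to 0.65, with medians of at most 0.173. Without the libraries in doubt it was called (adjusted p = 0.0239), as it was without A/J mouse 25 or without SJL mouse 64. Its levels are those of a few reads per library, and the groups overlapped at 0.

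Strain and diet together were tested with 2 libraries per combination. No collagen was called for an interaction in any tissue by edgeR, a count of 0 beside 0% of all genes in liver, muscle and subcutaneous fat, 0.0099% in brown fat (2 genes) and 0.392% in visceral fat (89 genes). At an unadjusted p under 0.05 there were 4 collagens in liver, 3 in muscle, 4 in brown fat, 2 in subcutaneous fat and 3 in visceral fat. Here too the share of all genes is not given, and no result is read from the counts. DESeq2 called 1, Col27a1 in visceral fat, and limma 0. No repeat without the libraries in doubt is given for the interaction. In visceral fat both libraries of SJL American, C57BL/6J Mediterranean and C57BL/6J Vegan were in doubt. Calls of some members changed when 1 library was left out. These were Col18a1, Col11a2, Col6a6, Col6a5, Col13a1 and Col27a1 in visceral fat, and Col6a4 in subcutaneous fat. Such a fit leaves 1 library in a combination of strain and diet, so no result is read from these changes. Without SJL mouse 49 the SJL American combination in visceral fat is mouse 50 alone. That library had Wt1 at 0 and Hoxc10 at 16.2 CPM, and Col11a2 and Col6a5 differed between the white depots (-1.69 and 3.99). Mouse 49 is itself in doubt, with Alb at 38.9% of its mean liver level.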

How the data were processed

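Gene-level values of 160 libraries were used, 32 for each of 5 tissues, with groups taken from the labels. Per the submitters' processing notes the authors used FastQC, Trim Galore, HISAT2 and HTSeq with GRCm39, in versions not given in the sources used here, and per the series' design text they relaxed the mismatch penalty for every strain but C57BL/6J. The deposited expected counts are fractional (74.4% of nonzero values were whole within 1e-06), and they were rounded to whole numbers for the count tests. The deposited TPM, also made by the authors, were used for levels across tissues and for an alternative test. Libraries were made with a stranded kit per the labels' protocols, but the strand setting of the counting is not given in the sources used here, so reads of neighbours that overlap on opposite strands (Col4a1 and Col4a2, Col4a3 and Col4a4, Col4a5 and Col4a6) could be shared. Names came from GENCODE for 56236 of 56980 identifiers.

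Tests were edgeR 4.0.16 quasi-likelihood fits (R 4.3.3) on all genes kept by filterByExpr (minimum count 10, total 15), scaled by TMM within a tissue or pair, with strain and diet as terms (and depot for fat pairs), Benjamini-Hochberg adjustment over all genes and a threshold of 0.05. CPM are TMM-scaled. Interaction fits added strain by diet. The scripts were tested on simulated data. Alternatives were DESeq2 1.42.0, limma 3.58.1 on log2 of TPM plus 1 (mean of at least 1 TPM), other size factors, no count filter, leaving out libraries in doubt (Alb at 10% or more of the liver mean, or a depot marker under 10% of its median) or with high Cd79a (over 4 times the median), and leaving out each library in turn. A trended dispersion and the test of the SJL difference between muscle and subcutaneous fat were added after the data had been seen.

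All members may be named. Full statistics go to at most 3 members per group and tissue with the smallest adjusted p over strains, to the 3 largest rises and falls per fat pair, to members called for diet, and to ratios of partner chains. The members and lists were chosen with earlier results of these data known. Tissues of 1 mouse pair across depots. This was looked at over all genes kept and not over the members alone. Deviations of the same mouse in 2 depots had a median correlation of 0.002 for visceral and subcutaneous fat (29 mice). It was -0.02 for brown and subcutaneous (31) and 0.183 for brown and visceral (30), against -0.011, 0.015 and 0.006 for different mice.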

Additional observations from a re-analysis of the deposited data

Results flagged for a closer look

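In groups of 8 libraries of a strain and tissue, 25 of 296 held 1 library far from the other 7 (a gap to its neighbour large for the group's range), and chance alone flags about 1 group in 20. Of the 25, 8 came from libraries in doubt. Values are CPM, with the range of the other 7 libraries.

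In liver, Col5a3 was at 2.76 in SJL mouse 53 (15.4 to 23.4) and Col20a1 at 1.19 in the same liver (7.23 to 10.9). Col4a1 was high at 53.4 in C57BL/6J mouse 7 (32.4 to 41.4) and at 49 in A/J mouse 30 (32.5 to 39.6). Col4a6 reached 0.381 in C57BL/6J mouse 13 (0.121 to 0.237), and Col28a1 0.135 in C57BL/6J mouse 12 (0 to 0.0513).

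In muscle 1 DBA/2J library, of mouse 33, was high for Col6a5 at 5.96 (0.453 to 1.54) and for Col16a1 at 14.9 (8.69 to 10.7). In brown fat Col5a3 was low at 78.2 in DBA/2J mouse 48 (167 to 221), Col4a2 high at 472 in A/J mouse 32 (334 to 393), and Col14a1 high at 37.8 in SJL mouse 49 (15.2 to 21.1), a library in doubt.

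In subcutaneous fat DBA/2J mouse 38, a library in doubt, was low for Col5a3 at 806 (1159 to 1453) and for Col5a1 at 280 (409 to 484). Col12a1 was at 24.9 in A/J mouse 22 (9.24 to 14.1), and Col23a1 at 6.15 in DBA/2J mouse 43 (2.94 to 4.43). Col17a1 had a high library in 3 strains, 16.3 in DBA/2J mouse 39 (1.67 to 5.33), 4.09 in C57BL/6J mouse 12 (0.957 to 2.15) and 7.22 in SJL mouse 63 (3.48 to 5.11).

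In visceral fat Col17a1 was also high in DBA/2J mouse 39, at 1.98 (0.546 to 1.01). A/J mouse 24, a library in doubt, was high for Col28a1 at 3.01 (0.481 to 1.51), Col17a1 at 2.49 (0.35 to 1.21) and Col11a2 at 8.05 (2.3 to 4.31). Col4a6 reached 20.9 in DBA/2J mouse 48 (7 to 12.6) and 1.69 in A/J mouse 27 (0.382 to 0.787), a library in doubt. In the library labelled SJL mouse 50, also in doubt, Col11a2 was at 28.5 (1.76 to 3.71), beside 22.8 to 44.8 CPM in SJL subcutaneous fat.

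Between tissues, the SJL contrast differed between muscle and subcutaneous fat in 34 collagens by the test of the difference itself.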

How the results depend on the processing

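For 94 single named values, and not for all members, 3596 alternatives were run, the leaving out of each library in turn among them. Members that lost a call without the libraries in doubt are given with the comparisons above. Of the 3596, 3584 kept their direction and side of the threshold, 8 lost the call, 4 gained it and 0 reversed. Most of them leave out 1 library, which changes a fit little, and many values were picked for small adjusted p or large differences. The agreement was thus largely set in advance. The changes of direction by median TPM in the brown fat pairs are not counted here. Col12a1 between brown and subcutaneous fat (0.12 with limma on TPM), Col4a3 in C57BL/6J muscle (-0.71) and Col20a1 in C57BL/6J visceral fat (-0.72, both without libraries in doubt) and Col11a2 in C57BL/6J liver (-0.88 without a count filter) lost it.

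With limma on TPM, which tested fewer genes, collagens called over strains were 10 in liver and 21 in muscle. The edgeR counts were 21 of 33 and 33 of 42. The number of collagens tested by limma is not given, so fewer tests and lost calls cannot be told apart in the limma counts. By that test 1 was lower in SJL muscle, 1 lower in DBA/2J visceral fat, 2 higher in SJL visceral fat, 2 higher in A/J and 2 lower in DBA/2J brown fat, 3 higher and 2 lower in C57BL/6J liver, 0 lower in A/J with SJL muscle, 10 lower in visceral than subcutaneous fat, and 2 and 3 higher in brown than subcutaneous and visceral fat. On that scale the median of all genes was -0.82 and -0.71 in the brown fat pairs, and the cause was not tested. Over diets 1 collagen was called in brown fat without libraries in doubt. For strain by diet in visceral fat DESeq2 called 1.

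Leaving out 1 library at a time, calls over diets in brown fat ran from 0 to 1, and higher in A/J brown fat from 2 to 5 (2 without mouse 32). Strain by diet is not counted this way, because such a fit leaves 1 library in a combination. With the mouse as a replicate block, 35, 39 and 40 collagens were called in visceral against subcutaneous, brown against subcutaneous and brown against visceral fat (35, 38 and 40 without), so the block changed counts by at most 1.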

Other observations

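In liver, 4 members of different collagen types were low together in the same 3 animals, a pattern chosen after the values were seen. Col5a3, Col27a1, Col20a1 and Col11a2 each had their lowest level of the strain in C57BL/6J mouse 7 (Mediterranean diet), DBA/2J mouse 48 (Vegan) and SJL mouse 53 (Mediterranean). For Col27a1 these livers had 5.79, 9.87 and 9.64 CPM, and the other 7 of each strain had 39.8 to 111, 24.1 to 77.5 and 59 to 123. For Col5a3 they had 9.17, 21.2 and 2.76 CPM, beside 38.5 to 95.1, 88.4 to 165 and 15.4 to 23.4. Col20a1 was at 0, 0.274 and 1.19 CPM, and Col11a2 at 0.241, 0.137 and 0.212.

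Col18a1 and Col3a1 were not the lowest of their strain in these livers. Col18a1 was at 809, 1084 and 1322 CPM, beside 698 to 857, 709 to 970 and 903 to 1353 in the rest of each strain, and Col3a1 at 59, 24.9 and 30.1 CPM, beside 21.5 to 43.1, 21.2 to 33.8 and 22.5 to 39.5. In the other tissues of the 3 mice Col27a1 was the lowest of its strain in 1 case, brown fat of mouse 48 (142 CPM, others 155 to 240). The cause was not tested.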
